A study of Mus musculus with 24 samples.

Results

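Amino acid and di- and tripeptide carriers of the families Slc1a, Slc3a, Slc6a, Slc7a, Slc15a, Slc36a and Slc38a were followed across 24 mouse gut RNA-seq libraries. Members were the protein-coding genes whose symbol falls in those 7 families and that reached 1 CPM (counts scaled to library size) in at least 3 libraries. Of 39179 genes counted, 69 had such a symbol, 66 of them protein-coding. 52 passed the level and form the set described here, 14 protein-coding genes stayed below it, and 3 genes had another biotype. The symbol rule also took in Slc7a6os, a gene named for its place on the opposite strand next to Slc7a6, which is not a carrier.

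The gut takes up protein as free amino acids and small peptides. On the apical membrane of enterocytes, Slc15a1 (PepT1) carries peptides, Slc6a19 neutral amino acids, Slc6a20a proline, and Slc7a9 with the heavy chain Slc3a1 cystine and cationic amino acids. On the basolateral side, light chains of the Slc7 family pair with the heavy chain Slc3a2 and exchange amino acids with the blood. Other members feed growing or stressed cells, among them the cystine and glutamate exchanger Slc7a11, and many Slc6 and Slc1 members take up neurotransmitters and osmolytes. Cdx2 is a homeobox transcription factor of the intestinal epithelium, and Apc is a tumour suppressor of the Wnt pathway.

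Libraries were made from total RNA of cecum, ileum or stomach, in groups of 3. Untreated mice gave the WT cecum, WT stomach and Cdx2+/- cecum groups. Cdx2-/- cecum (6 libraries, set 1 with replicates 1 to 3 and set 2 with replicates 4 to 6) came from Cdx2f/f::AhCreERT mice given tamoxifen and β-naphthoflavone, in which CreERT stands under the Cyp1a1 (Ah) promoter. Cdx2-/-;Apc+/- cecum and ileum came from mice of the same kind that also carry the ApcD14 allele on 1 chromosome, with the same treatment. Apc+/- ileum was untreated. Its description names a Cdx2 allele without loxP sites, while the genotype tag of replicate 1 and replicate 3 names the floxed allele and the Cre, and the title was followed. The treatment was given only to the mutants made by Cre, so deletion and treatment cannot be told apart. Whether replicates are separate animals is not stated, and p-values then cover only the spread between these libraries, which may be technical.

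Between 36567685 and 87975179 reads per library fell in genes. Values are CPM scaled by trimmed mean of M values (TMM), and fold changes are log2 with their standard error from edgeR's quasi-likelihood test over 20502 genes. A gene is said to rise or fall where its Benjamini-Hochberg adjusted p was under 0.05. Reads of Cdx2 ran from 408 to 663 CPM in WT cecum, 115 to 118 in Cdx2+/- cecum and 130 to 349 in Cdx2-/- cecum. The position of the deleted part is not given in the sources used here, so whole-gene reads check deletion only in part. In the ileum Cdx2 stood at 63.3 to 112 CPM in Apc+/- and at 78.9, 178 and 36.9 CPM in the libraries labelled Cdx2-/-;Apc+/-. Replicate 1 of these lay within the range of the controls. The library labelled replicate 2 lay above every control, and whether its label is right was not tested. The same library held 12814 CPM of 8 small intestinal enterocyte markers, against 697 and 1483 in the other mutant ilea. The 5 colonocyte markers with an annotation summed to 20072 to 36458 CPM in WT cecum and to at most 2248 in Cdx2-/- cecum, 5 of 5 called lower. All 3 libraries of set 1 carried more Xist than Ddx3y, and the other 21 carried more Ddx3y, so sex differs between the sets together with any other difference. In bulk RNA, fewer cells of a type and less RNA per cell cannot be told apart.

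Per kilobase of exon, the carrier in the lead differed between groups. In WT cecum Slc6a14, a sodium- and chloride-coupled carrier of neutral and cationic amino acids, led at 154 RPKM (CPM divided by exon length in kilobases, group mean), ahead of Slc38a6 (39.8), Slc3a1 (39.7) and the creatine carrier Slc6a8 (38.1). In Cdx2+/- cecum Slc3a1 led at 78.6 RPKM, and Slc6a19 (33.7) and Slc7a9 (33.05) stood among the leading 5. In Cdx2-/- cecum the heavy chain Slc3a2 (36.3 RPKM in set 1 and 37.7 in set 2) and Slc6a8 (47.3 and 30.5) led. In Apc+/- ileum the neutral carrier Slc38a4 led at 149.7 RPKM, and in WT stomach Slc3a2 did at 41.3 RPKM. These are levels per length, which the fold changes below do not compare between genes.

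In Cdx2-/- cecum 27 of the 52 members differed from WT cecum. Of these, 20 rose and 7 fell, where 26.9% of all genes tested rose and 26.2% fell. The median log2 change was 0.42 over the members and 0.04 over all genes. The split leaned further up with library sizes alone as the scale, at 23 higher and 4 lower, where the median of all genes itself moved to 0.46. Carriers of the exchanger and cationic groups were higher, with Slc7a11 the farthest, while Slc6a14 and Slc3a1 of the apical group were lower.

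In Cdx2+/- cecum 19 members rose and 7 fell against WT cecum, with 17.1% of all genes higher and 17.3% lower. The member median was 0.64 and that of all genes -0.05. Slc6a19, Slc7a9, Slc7a15 and Slc15a1 rose most. Between the mutants, 10 members were higher and 15 lower in Cdx2-/- than in Cdx2+/- cecum, with 19.7% and 20.6% of all genes. Upper quartile factors turned that split to 14 higher and 13 lower and library sizes alone to 17 and 12. The whole scale moved with them: the median of all genes went from 0.05 to 0.21 and 0.35. All genes then split into 5534 higher and 3115 lower, and 6902 and 2341. The comparisons with WT cecum share its 3 libraries, and the one between mutants uses the mutant libraries of both.

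With Apc+/- added, 21 members rose and 5 fell against WT cecum, where 26.6% of all genes rose and 26.1% fell. Against Cdx2-/- cecum only 3 members rose and none fell, with 3.93% and 4.5% of all genes. edgeR gave an unadjusted p under 0.05 for 18 members there, and DESeq2 called 8 higher and 1 lower. The count was 5 without set 1 replicate 1, set 2 replicate 6 or Cdx2-/-;Apc+/- cecum replicate 1. Set 2 of Cdx2-/- cecum differed from set 1 in 5 members, 4 higher and 1 lower, with 4.03% and 6.45% of all genes. It was 3 members without set 1 replicate 1 or 2 or set 2 replicate 5 or 6.

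Most carriers differed between ileum and cecum. In Apc+/- ileum 30 members were higher and 9 lower than in WT cecum, where 28.1% and 27.2% of all genes were. The member median was 1.29 against 0.03 over all genes. With library sizes alone the split was 37 to 4, and the median of all genes moved to 0.64. Tissue and the Apc allele differ together in that comparison and cannot be told apart. In WT stomach 17 members were higher and 12 lower than in WT cecum, with 22.1% and 21.6% of all genes. Within the ileum 1 member, Slc1a3, rose in Cdx2-/-;Apc+/- and none fell, with 0.395% and 0.0488% of all genes, while 11 members had an unadjusted p under 0.05 in edgeR. DESeq2 called 1 higher and 1 lower, and edgeR called 0 without Apc+/- ileum replicate 1 (8 at an unadjusted p under 0.05).

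**Figure D1:**
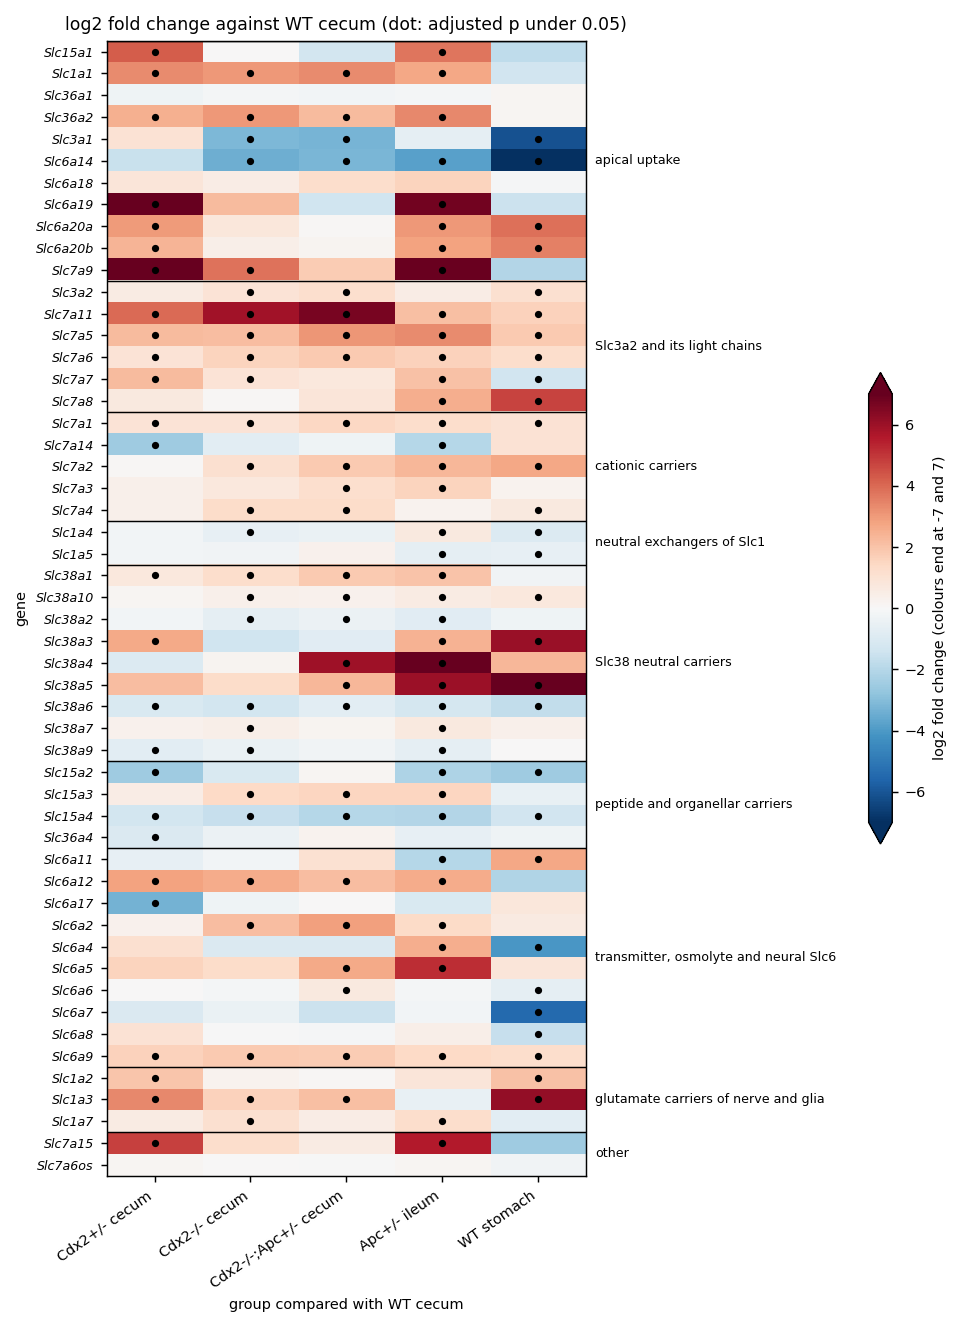
log2 fold change of the 52 members (rows, grouped by role) in 5 groups against WT cecum, which all 5 share; red is higher and blue lower, colours end at -7 and 7, and a dot marks an adjusted p under 0.05: Slc6a19 and Slc7a9 are deep red in Cdx2+/- cecum and Apc+/- ileum, and Slc7a11 is reddest in the mutant ceca made by Cre.

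Among the apical uptake carriers, 7 of 11 rose and none fell in Cdx2+/- cecum, while in Cdx2-/- cecum 3 rose and 2 fell. Of all genes, 17.1% rose and 17.3% fell in Cdx2+/- cecum, and 26.9% and 26.2% in Cdx2-/- cecum. The log2 changes of the 11 carriers spanned -1.58 to 7.18 in Cdx2+/- and -3.39 to 3.81 in Cdx2-/- cecum. Slc15a1, the peptide carrier, stood at 5.88, 5.79 and 6.23 CPM in WT cecum and 87.7, 161 and 88.2 in Cdx2+/- cecum. Every heterozygous library lay above every WT library, a log2 change of 4.23 ± 1.05, adjusted p = 0.00414. Cdx2-/- cecum ran from 2.41 to 13.6 (median 4.18) CPM, on either side of the WT libraries, and was not called against them (0.02 ± 0.81, adjusted p = 0.986). It lay below all heterozygous libraries (-4.21 ± 0.79, adjusted p = 0.000621).

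Slc6a19, the main carrier of neutral amino acids on the brush border, separated the cecum groups further. WT cecum held 1.40, 0.774 and 1.49 CPM and Cdx2+/- cecum 101, 266 and 139, with no overlap (7.10 ± 1.80, adjusted p = 0.00479). Cdx2-/- cecum ran from 0.164 to 27.7 (median 4.02) CPM, a spread that reached below and above WT (2.24 ± 1.39, adjusted p = 0.186). All 6 of these libraries were below the heterozygous ones (-4.87 ± 1.20, adjusted p = 0.00409). Cdx2-/-;Apc+/- cecum held 0.319, 0.278 and 0.797 CPM, and Apc+/- ileum 72.4, 103 and 218.

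The cystine carrier Slc7a9 and its heavy chain Slc3a1 went apart. Slc7a9 stood at 0.609, 0.648 and 0.565 CPM in WT cecum, 62.4, 111 and 91.7 in Cdx2+/- cecum and 0.716 to 16.5 (median 7.07) in Cdx2-/- cecum. It rose in both, by 7.18 ± 1.14, adjusted p = 8.80e-05 in Cdx2+/- and 3.81 ± 0.96, adjusted p = 0.00245 in Cdx2-/- cecum, with no overlap with WT. Slc3a1 was already at 108, 113 and 50.4 CPM in WT cecum and at 133, 233 and 170.4 in Cdx2+/- cecum, which was not called (0.99 ± 0.81, adjusted p = 0.368). In Cdx2-/- cecum it ran from 5.45 to 13.2 (median 11.7) CPM, below every WT library (-3.16 ± 0.67, adjusted p = 0.000615), and in Cdx2-/-;Apc+/- cecum at 9.38, 2.08 and 16.4 CPM (-3.28 ± 0.88, adjusted p = 0.00412). Slc3a1 shares 601 exon bases with Prepl on the opposite strand, and the library kit does not mark strand.

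**Figure D2:**
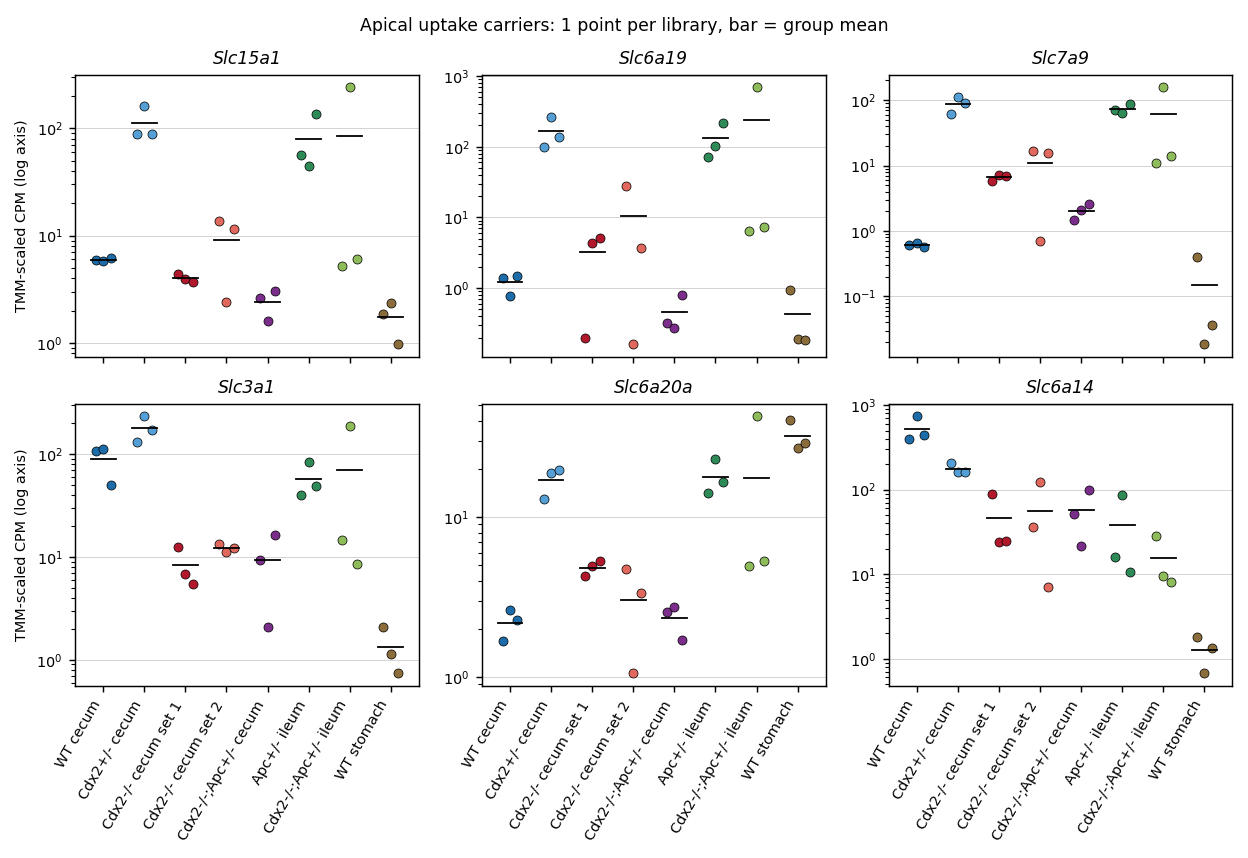
TMM-scaled CPM (log axis) of 6 apical uptake carriers in the 8 groups, 1 point per library with a bar at the group mean. Slc15a1, Slc6a19 and Slc7a9 are high in Cdx2+/- cecum and Apc+/- ileum, Slc6a14 is highest in WT cecum, and 1 of the 3 Cdx2-/-;Apc+/- ileum libraries stands far above the other 2 in each panel but that of Slc6a14.

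The promoter window of Slc3a1 was read beside those of Slc7a15, a carrier related to Slc7a9 that went from 0.318, 0.230 and 0.134 CPM in WT cecum to 3.02, 10.04 and 5.05 in Cdx2+/- cecum (4.77 ± 1.22, adjusted p = 0.00505). RefSeq (GRCm38.p6) windows of 250 bases before to 50 after each start were found for 38 of the 52 members. Some genes have more than 1 start and window, and a gene was counted where any of its windows held a motif. The windows were searched on both strands for the Cdx2 motif TTTATNG, the Hnf4a motif CAAAGTCCA, the amino acid response element TGATGNAA and the antioxidant response element TGACNNNGC. Of the 38 members, 2 held the Cdx2 motif, Slc3a1 and Slc7a15, and 12.5% of all 27025 genes with windows did. Slc3a1 was also the 1 member with the Hnf4a motif, which 0.56% of all genes held, and 6 members held the antioxidant response element, which 14.0% of all genes held. A match is a description of letters and no evidence of binding. The 220 bases before the start sites are shown for these 2 genes because both motifs meet in the Slc3a1 window and 1 of the 2 Slc7a15 windows, the one shown, holds the Cdx2 motif at positions -196 and -45. The other Slc7a15 window held none of the motifs searched. Capitals mark the Cdx2 motif on either strand and, in Slc3a1 at position -39, the Hnf4a motif.
Slc3a1, chr17:85028127-85028346, plus strand: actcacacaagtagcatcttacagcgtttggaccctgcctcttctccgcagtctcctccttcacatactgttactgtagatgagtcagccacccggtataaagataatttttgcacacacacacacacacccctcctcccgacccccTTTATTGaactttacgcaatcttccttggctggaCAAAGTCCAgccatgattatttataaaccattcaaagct
Slc7a15, chr12:8599067-8599286, minus strand: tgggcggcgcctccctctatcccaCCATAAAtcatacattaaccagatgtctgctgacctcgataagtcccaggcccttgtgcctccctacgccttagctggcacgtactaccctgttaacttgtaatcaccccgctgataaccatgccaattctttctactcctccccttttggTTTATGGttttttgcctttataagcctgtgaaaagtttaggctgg

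Slc6a14 was highest in WT cecum and fell in the Cdx2-/- ceca. WT cecum held 402, 736 and 448 CPM, Cdx2+/- cecum 206, 160.3 and 164 and Cdx2-/- cecum 7.11 to 122 (median 30.5). All heterozygous and all Cdx2-/- libraries lay below WT, and the test called the second (-3.39 ± 0.72, adjusted p = 0.00057) and not the first (-1.58 ± 0.87, adjusted p = 0.168). Cdx2-/-;Apc+/- cecum, at 51.2, 21.3 and 100.3 CPM, was also lower (-3.20 ± 0.92, adjusted p = 0.00697). The step from Cdx2+/- to Cdx2-/- (-1.81 ± 0.71, adjusted p = 0.0477) lost its call without any 1 of the 3 heterozygous libraries, set 1 replicates 2 and 3 or set 2 replicates 4 and 6 (-1.69, adjusted p = 0.124 without Cdx2+/- cecum replicate 1). Slc6a14 lies on the X chromosome. The sum of 5 colonocyte markers moved with it, at 20072 to 36458 CPM in WT cecum, 3500 to 4727 in Cdx2+/- cecum and 19.8 to 2248 in Cdx2-/- cecum, and their part in the result was not tested.

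Slc1a1, the apical glutamate carrier, rose in all mutant ceca. It stood at 2.09, 2.30 and 1.92 CPM in WT cecum, 21.4, 24.2 and 15.9 in Cdx2+/- cecum, 8.91 to 23.1 (median 20.6) in Cdx2-/- cecum and 21.5, 29.8 and 11.2 in Cdx2-/-;Apc+/- cecum. No mutant library overlapped WT, and the changes were 3.29 ± 0.59, 3.03 ± 0.55 and 3.31 ± 0.59 (adjusted p at most 0.000284). Its exons share 2631 bases with 4430402I18Rik on the opposite strand, so the reads cannot be assigned to it alone. The proton-coupled carrier Slc36a2 rose from 0.238, 0.251 and 0.253 to 1.06 to 2.96 (median 2.08) CPM in Cdx2-/- cecum (3.04 ± 0.63, adjusted p = 0.000471), while its relative Slc36a1 was not called in any comparison and stood at 41.9 to 48.8 CPM in WT cecum and 36.8 to 53.9 (median 39.98) in Cdx2-/- cecum. The sign of the Slc36a1 difference from WT turned with library sizes alone (0.32, adjusted p = 0.0215). The proline carriers Slc6a20a, 1.67, 2.61 and 2.27 CPM in WT cecum, and Slc6a20b rose in Cdx2+/- cecum, Slc6a20a to 12.9, 18.8 and 19.8 CPM (2.97 ± 0.64, adjusted p = 0.00143). On the opposite strand, Slc6a20b shares 1800 exon bases with Sacm1l, and Slc6a20a 607 with Gm17120, Gm17200 and Ccr9.

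In Cdx2+/- cecum, 5 of 8 small intestinal enterocyte markers rose and none fell, where 17.1% of all genes rose and 17.3% fell. The sum of these 8 markers ran from 2776 to 6118 CPM against 1281 to 2646 in WT cecum. Lactase (Lct) was at 0 in 2 of the 3 WT libraries and in 1 heterozygous library. Of 8 gastric gland markers 3 rose and none fell, with sums of 29849 to 31764 CPM against 4.87 to 1010. Gkn1, Gkn2 and Tff2 each held at least 5909 CPM in every heterozygous library, and the other gland markers at most 904. The 6 squamous markers all rose (sums of 45.6 to 755 CPM against 1.20 to 4.13), and 6 of 6 smooth muscle markers were lower, at 117 to 525 CPM in sum against 1118 to 3786. The part of these markers in the carrier differences was not tested.

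Of Slc3a2 and its light chains, 5 of 6 rose in Cdx2-/- cecum and 4 of 6 in Cdx2+/- and in Cdx2-/-;Apc+/- cecum, and none fell against WT cecum. The shares of all genes that rose were 26.9%, 17.1% and 26.6% in the same order. Slc7a11 moved farthest. It stood at 3.28, 2.47 and 4.07 CPM in WT cecum, 37.98, 71.8 and 41.7 in Cdx2+/- cecum, 109 to 333 (median 196) in Cdx2-/- cecum and 196, 531 and 249.6 in Cdx2-/-;Apc+/- cecum. WT, heterozygous and Cdx2-/- libraries formed 3 ranges with no overlap. The log2 changes against WT were 3.94 ± 0.42, adjusted p = 1.35e-06 in Cdx2+/-, 5.89 ± 0.44, adjusted p = 5.25e-09 in Cdx2-/- and 6.63 ± 0.47, adjusted p = 8.28e-09 in Cdx2-/-;Apc+/- cecum. Cdx2-/- was also above Cdx2+/- cecum (1.94 ± 0.35, adjusted p = 0.000444), while the addition of Apc+/- was not called (0.75 ± 0.31, adjusted p = 0.14). In WT stomach Slc7a11 held 10.5, 8.76 and 10.4 CPM and in Apc+/- ileum 14.9, 11.95 and 15.3.

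Slc7a11 was 1 of 3 of the 38 members with the amino acid response element TGATGNAA in a window, beside Slc1a4 and Slc7a7, and 4.51% of all genes held it. The Slc7a11 window held the element at position -66 and again, on the other strand, at position -47. The 220 bases before its start are shown since Slc7a11 rose most of the members in Cdx2-/- and Cdx2-/-;Apc+/- cecum, with capitals for the element.
Slc7a11, chr3:50443614-50443833, minus strand: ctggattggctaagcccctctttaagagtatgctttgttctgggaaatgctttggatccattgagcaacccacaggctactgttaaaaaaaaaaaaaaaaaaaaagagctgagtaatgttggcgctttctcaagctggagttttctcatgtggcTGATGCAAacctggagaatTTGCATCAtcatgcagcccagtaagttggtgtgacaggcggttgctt

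The heavy chain Slc3a2 rose less. WT cecum held 76.7, 72.3 and 49.95 CPM, Cdx2-/- cecum 101 to 177 (median 127) and Cdx2-/-;Apc+/- cecum 106, 204 and 134, all mutants above all WT libraries (0.98 ± 0.25, adjusted p = 0.00246, and 1.16 ± 0.28, adjusted p = 0.00167). Cdx2+/- cecum, at 92.95, 106 and 98.2 CPM, also lay above WT and was not called (0.58 ± 0.27, adjusted p = 0.107). Slc7a5, the light chain for large neutral amino acids, went from 4.77, 2.82 and 8.94 CPM in WT cecum to 25.03, 23.1 and 28.1 in Cdx2+/- (2.20 ± 0.38, adjusted p = 0.00019), 18.1 to 37.3 (median 23.4) in Cdx2-/- (2.18 ± 0.35, adjusted p = 3.56e-05) and 33.4, 78.1 and 31.9 in Cdx2-/-;Apc+/- cecum (3.11 ± 0.39, adjusted p = 3.21e-06). Slc7a6, an exchanger of cationic for neutral amino acids, rose from 15.2, 13.9 and 15.2 CPM to 27.1, 28.97 and 31.7 in Cdx2+/- and 34.1 to 51.02 (median 45.1) in Cdx2-/- cecum (1.56 ± 0.16, adjusted p = 2.48e-07).

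Slc7a7, the exchanger of the same kind in the enterocyte's basolateral membrane, was highest in Cdx2+/- among the ceca. It stood at 16.2, 14.4 and 17.04 CPM in WT cecum, 52.2, 79.3 and 85.6 in Cdx2+/- cecum (2.19 ± 0.37, adjusted p = 0.00018) and 26.97 to 35.03 (median 30.2) in Cdx2-/- cecum (0.93 ± 0.32, adjusted p = 0.0204). Cdx2-/- lay between WT and heterozygous libraries with no overlap on either side (-1.26 ± 0.30, adjusted p = 0.00314 against Cdx2+/-). Its Cdx2-/- call was lost without WT cecum replicate 1 (0.95, adjusted p = 0.0569) or replicate 2 (0.87, adjusted p = 0.0777). Slc7a8, the light chain for neutral amino acids of any size, was not called in any mutant cecum and stood at 3.95, 2.82 and 6.27 CPM in WT and 3.53 to 6.82 (median 4.13) in Cdx2-/- cecum (0.09 ± 0.31, adjusted p = 0.827).

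Markers of some other cell types rose beside the exchangers, and others did not. In Cdx2-/- cecum 4 of 4 neutrophil, 4 of 4 Paneth and 5 of 6 fibroblast markers rose and none fell, and in Cdx2-/-;Apc+/- cecum the counts were the same. Of all genes, 26.9% rose and 26.2% fell in Cdx2-/- cecum. There 4 of 4 enteroendocrine markers fell, and of 6 epithelial markers 3 fell and 1 rose. Of 6 T and B cell markers 1 rose and 1 fell, and none of 6 smooth muscle or 4 erythroid markers was called. In Cdx2+/- cecum 3 of 4 neutrophil and 2 of 4 Paneth markers rose, while no fibroblast marker rose and 1 of 6 fell. Neutrophil markers summed to 3.49 to 4.71 CPM in WT cecum, 10.9 to 109 in Cdx2+/- cecum, 52.7 to 228 in Cdx2-/- cecum and 59.8 to 401 in Cdx2-/-;Apc+/- cecum. Paneth markers summed to 1.42 to 7.399, 9.69 to 13.1, 122 to 1417 and 942 to 3533 CPM in the same order, and Defa17 among them was at 0 in all WT ceca. Fibroblast markers summed to 420.0 to 1114, 659 to 975, 1330 to 2598 and 2111 to 2537 CPM. Their part in the exchanger differences was not tested.

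**Figure D3:**
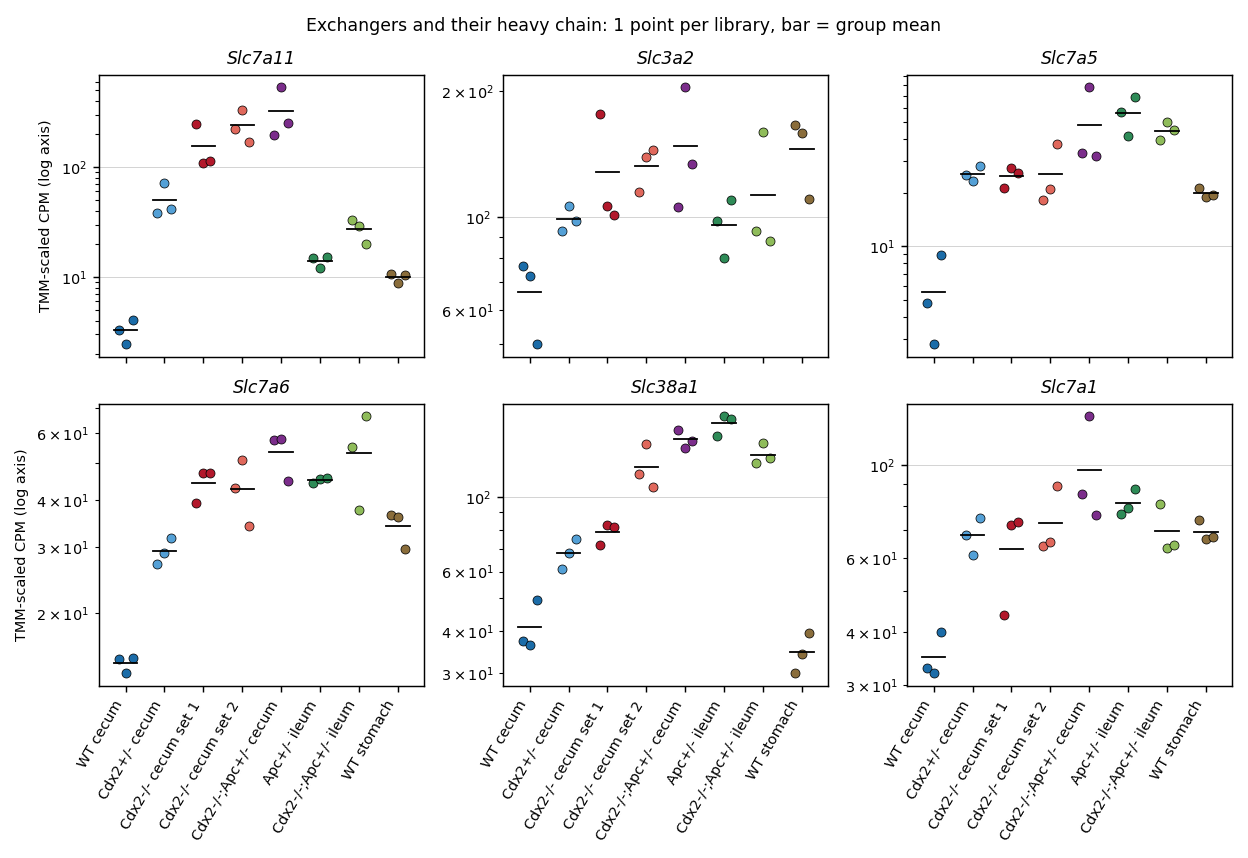
TMM-scaled CPM (log axis) of Slc7a11, Slc3a2, Slc7a5, Slc7a6, Slc38a1 and Slc7a1 in the 8 groups, 1 point per library with a bar at the group mean. WT cecum lies below all mutant ceca in each panel, and for Slc7a11 the Cdx2-/- ceca, from 109 CPM up, lie above every ileum and stomach library.

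Of the cationic carriers, 3 of 5 rose in Cdx2-/- cecum and 4 of 5 in Cdx2-/-;Apc+/- cecum, where 26.9% and 26.6% of all genes rose. Slc7a1, the widespread arginine and lysine carrier, went from 32.8, 32.02 and 40.03 CPM in WT cecum to 68.004, 61.2 and 74.7 in Cdx2+/- (0.96 ± 0.20, adjusted p = 0.00127), 44.01 to 89.05 (median 68.8) in Cdx2-/- (0.96 ± 0.18, adjusted p = 0.000221) and 85.3, 130.5 and 76.03 in Cdx2-/-;Apc+/- cecum (1.48 ± 0.21, adjusted p = 1.03e-05). No mutant library overlapped WT. Slc7a4 rose from 9.51, 9.96 and 10.1 to 17.2 to 28.3 (median 25.9) CPM in Cdx2-/- cecum (1.30 ± 0.14, adjusted p = 4.63e-07) and was not called in Cdx2+/- cecum (0.34 ± 0.16, adjusted p = 0.0964). The difference between these mutants was called as well (0.96 ± 0.14, adjusted p = 7.91e-05). Its exons overlap P2rx6 on the opposite strand by 554 bases. Slc7a2 also stood apart in Cdx2-/- cecum, with 1.30 to 1.69 CPM in WT, 1.51 to 1.63 in Cdx2+/- and 2.38 to 4.99 (median 3.16) in Cdx2-/- cecum (1.07 ± 0.24, adjusted p = 0.00247 for the last against Cdx2+/-, lost with set 1 alone at 0.66, adjusted p = 0.0761).

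Of the 9 Slc38 members, 3 rose and 3 fell in Cdx2-/- cecum (log2 changes from -1.39 to 1.29), 2 rose and 2 fell in Cdx2+/- cecum, and 4 rose and 2 fell in Cdx2-/-;Apc+/- cecum. The shares of all genes, higher and lower, were 26.9% and 26.2%, 17.1% and 17.3%, and 26.6% and 26.1% in the same order. Slc38a1, a sodium-coupled carrier of glutamine, rose from 37.4, 36.4 and 49.3 CPM in WT cecum to 61.3, 68.2 and 75.3 in Cdx2+/- (0.73 ± 0.14, adjusted p = 0.00054), 71.9 to 144 (median 94.8) in Cdx2-/- (1.26 ± 0.13, adjusted p = 2.04e-07) and 159, 140.3 and 147 in Cdx2-/-;Apc+/- cecum (1.86 ± 0.14, adjusted p = 2.15e-08). No mutant library overlapped WT, while Cdx2-/- overlapped both other mutant groups. Set 2 lay above set 1 (0.64 ± 0.14, adjusted p = 0.00842, lost without set 2 replicate 5 at 0.51, adjusted p = 0.0603). Against set 2 alone, Cdx2-/-;Apc+/- cecum was not called (0.28, adjusted p = 0.558), while against both sets it was (0.60 ± 0.12, adjusted p = 0.00733).

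Slc38a2, the form induced by amino acid lack in many cells, fell in Cdx2-/- cecum, from 284, 317 and 235 to 164 to 206 (median 177) CPM, with no overlap (-0.62 ± 0.13, adjusted p = 0.000388). With library sizes alone it was not called (-0.17, adjusted p = 0.256). Its lower level in Cdx2-/-;Apc+/- cecum (-0.38 ± 0.15, adjusted p = 0.0362) was lost without replicate 1 (-0.31) or replicate 3 (-0.35) of that group or replicate 1 (-0.37) or 2 (-0.28) of WT cecum, and turned to 0.06 with library sizes alone. Slc38a6 fell in every mutant cecum, from 304, 348 and 277 CPM to 142, 142 and 163 in Cdx2+/- (-1.06 ± 0.24, adjusted p = 0.00221) and 90.3 to 158 (median 146) in Cdx2-/- cecum (-1.26 ± 0.20, adjusted p = 3.03e-05). In Cdx2-/-;Apc+/- cecum, at 199, 159 and 197 CPM (-0.74 ± 0.24, adjusted p = 0.0137), its call was lost without replicate 2 of that group (-0.64) or of WT cecum (-0.65). The neutral exchanger Slc1a5 was not called in any mutant cecum, at 119, 106 and 121 CPM in WT and 72.2 to 123 (median 96.3) in Cdx2-/- cecum. Its relative Slc1a4 was called lower in Cdx2-/- (-0.58 ± 0.23, adjusted p = 0.0393) and lost the call without WT cecum replicate 1 (-0.32), replicate 3 (-0.62) or any of 4 Cdx2-/- libraries, set 1 replicates 2 and 3 and set 2 replicates 4 and 5 (-0.53 to -0.52).

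Slc38a4, a sodium-coupled neutral carrier and an imprinted gene, was far higher in the ilea than in the ceca. All ileum libraries carry ApcD14, so against the ceca without that allele tissue and allele cannot be told apart. Slc38a4 held 614, 664 and 636 CPM in Apc+/- ileum and 228, 289 and 319 in Cdx2-/-;Apc+/- ileum. WT cecum held 0.0530, 0.0837 and 0.847 CPM, Cdx2+/- cecum 0.217, 0.0695 and 0.275 and Cdx2-/- cecum 0.239 to 0.773 (median 0.405). The 3 libraries of Cdx2-/-;Apc+/- cecum, at 0.255, 4.42 and 63.2 CPM, were far apart, and the lowest lay within the range of Cdx2-/- cecum. The difference from Cdx2-/- cecum was called (5.76 ± 0.90, adjusted p = 0.00214), not with a replicate block, which takes set 1 alone (3.62, adjusted p = 0.0861) and not against set 2 alone (5.92, adjusted p = 0.104), and it was 2.47, adjusted p = 0.0434 without replicate 3 of that group. The lower values in the mutant ileum did not overlap the controls, and edgeR did not call them (-1.19 ± 0.94, adjusted p = 0.791).

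**Figure D4:**
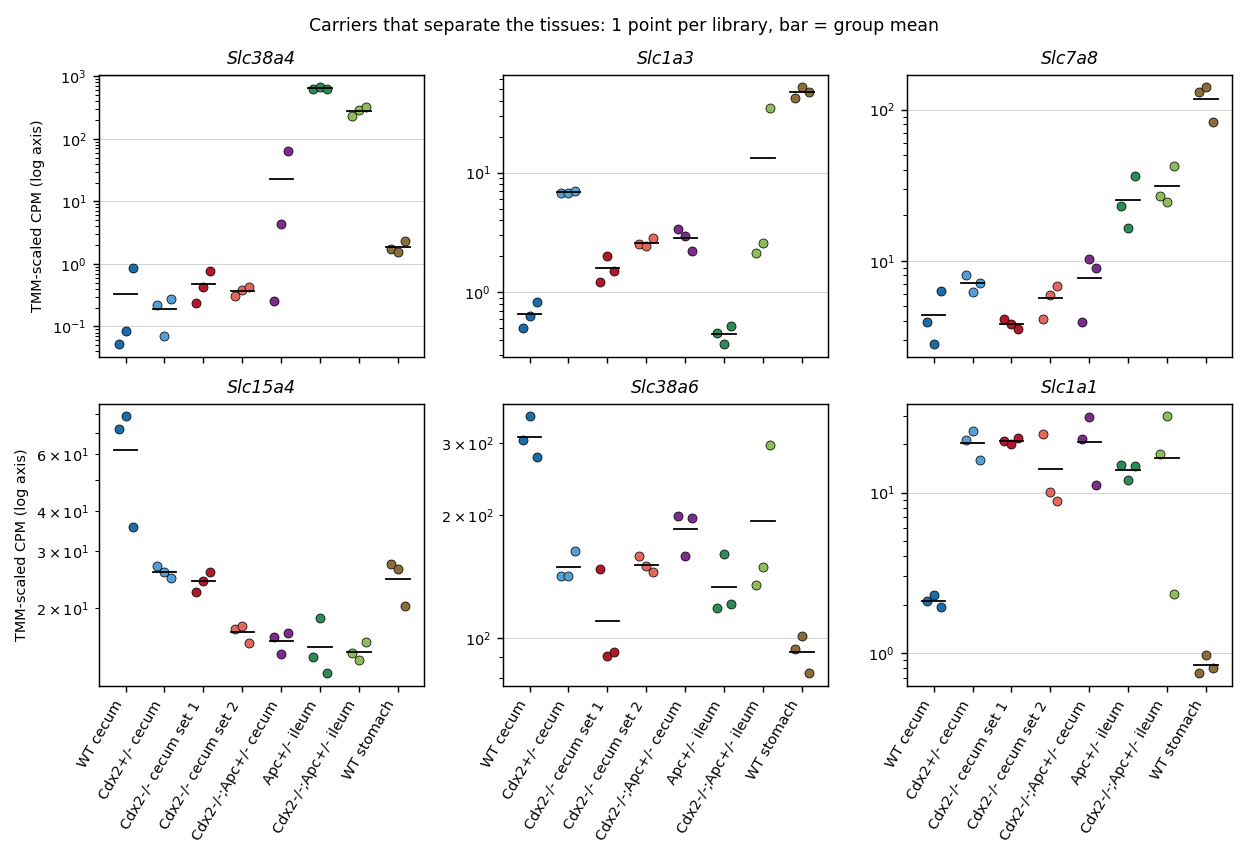
TMM-scaled CPM (log axis) of Slc38a4, Slc1a3, Slc7a8, Slc15a4, Slc38a6 and Slc1a1 in the 8 groups, 1 point per library with a bar at the group mean. Slc38a4 is above 200 CPM in all 6 ilea and at 63.2 CPM or less elsewhere, Slc1a3 and Slc7a8 are highest in WT stomach, and Slc15a4 and Slc38a6 are highest in WT cecum apart from 1 mutant ileum, at 297 CPM, for Slc38a6.

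Of 4 peptide and organellar carriers, 1 rose and 1 fell in Cdx2-/- cecum, and 3 fell in Cdx2+/- cecum. In Cdx2-/- cecum 26.9% of all genes rose and 26.2% fell, and in Cdx2+/- cecum 17.3% fell. Slc15a4, which exports histidine and peptides from lysosomes, fell in each mutant cecum. WT cecum held 71.9, 78.8 and 35.6 CPM, Cdx2+/- cecum 27.03, 25.9 and 24.9 and Cdx2-/- cecum 15.6 to 25.9 (median 19.99), with no overlap (-1.26 ± 0.21, adjusted p = 0.000156, and -1.62 ± 0.17, adjusted p = 3.32e-07). Slc15a3, its relative in immune cells, rose in Cdx2-/- cecum from 2.75, 2.78 and 5.62 to 6.75 to 16.6 (median 8.86) CPM (1.39 ± 0.29, adjusted p = 0.000572). 5 of 6 macrophage markers rose there too, with sums of 404 to 751 CPM against 97.9 to 263 in WT cecum, and their part was not tested. Slc15a3 shares 1541 exon bases with Tmem132a on the opposite strand. Slc15a2, the high-affinity peptide carrier, held 12.7, 46.02 and 16.9 CPM in WT cecum and 10.3, 0.938 and 2.51 in Cdx2+/- cecum (-2.46 ± 0.68, adjusted p = 0.00834), which was lost without WT cecum replicate 2 (-1.70, adjusted p = 0.0694) and was -3.87 without Cdx2+/- cecum replicate 1. That WT library held 1010 CPM of gastric gland markers against 276 and 4.87 in the other WT ceca, whose part was not tested.

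Carriers of transmitters and osmolytes included 3 of 10 that rose in Cdx2-/- cecum, Slc6a9, Slc6a12 and Slc6a2, and none that fell (log2 changes from -1.04 to 2.58). Of all genes, 26.9% rose and 26.2% fell there. The glycine carrier Slc6a9 went from 12.8, 9.29 and 12.7 CPM in WT cecum to 35.8, 34.4 and 34.7 in Cdx2+/- (1.59 ± 0.29, adjusted p = 0.000346), 26.4 to 84.4 (median 35.7) in Cdx2-/- (1.84 ± 0.27, adjusted p = 1.30e-05) and 30.9, 39.9 and 50.1 in Cdx2-/-;Apc+/- cecum (1.79 ± 0.29, adjusted p = 5.16e-05), all above WT. Slc6a9 shares 1986 exon bases with Ccdc24, B4galt2 and Gm17114 on the opposite strand, so its reads cannot be assigned to it alone. The betaine carrier Slc6a12 rose from 0.0795, 0.167 and 0.238 to 0.400 to 2.17 (median 0.943) CPM (2.58 ± 0.66, adjusted p = 0.00286). The taurine carrier Slc6a6 was not called in Cdx2-/- cecum (153 to 329 (median 189.8) CPM against 211 to 234 in WT) and rose in Cdx2-/-;Apc+/- cecum to 277, 423 and 371 CPM (0.67 ± 0.20, adjusted p = 0.00874 against WT, and 0.53, adjusted p = 0.0501 without replicate 2 of that group). Its rise over Cdx2-/- cecum (0.80 ± 0.17, adjusted p = 0.00899) was lost without the same library (0.66, adjusted p = 0.0813) and against set 2 alone (0.49, adjusted p = 0.414).

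The serotonin carrier Slc6a4 stood at 3.20, 4.27 and 3.22 CPM in WT cecum and 4.95, 11.5 and 6.54 in Cdx2+/- cecum. Cdx2-/- cecum ran from 0.739 to 8.52 (median 0.799) CPM, where 5 libraries lay below WT and set 2 replicate 4 above it (-1.04 ± 0.71, adjusted p = 0.229, and -2.07, adjusted p = 0.00855 without that library). Of the 10 carriers of transmitters and osmolytes, 2 rose and 1 fell in Cdx2+/- cecum (median 0.66), with 17.1% and 17.3% of all genes. The one that fell was Slc6a17, of synaptic vesicles, which went from 3.52, 2.03 and 11.6 to 0.261, 0.330 and 1.12 CPM (-3.32 ± 0.70, adjusted p = 0.00122), and Slc7a14, related to the cationic carriers and found in nerve cells, also fell, from 2.17, 1.63 and 5.71 to 0.499, 0.538 and 0.659 CPM (-2.49 ± 0.51, adjusted p = 0.00094). 6 of 8 nerve and glia markers were lower in the same comparison, with sums of 15.8 to 22.7 CPM against 16.6 to 51.0 in WT cecum, and their part was not tested. Of 3 glutamate carriers of nerve and glia, 2 rose in each of Cdx2+/- and Cdx2-/- cecum and none fell. Of all genes, 17.1% and 26.9% rose in these groups. Slc1a3, the glial carrier, rose in Cdx2+/- cecum from 0.503, 0.627 and 0.832 to 6.80, 6.77 and 7.07 CPM (3.37 ± 0.71, adjusted p = 0.00121). In set 2 against set 1 the proline carrier Slc6a7 was called (3.77 ± 1.13, adjusted p = 0.0405) on set 2 replicate 6, at 51.5 CPM against 0.317 to 3.37 in the other 5 libraries, and was not without it (0.81, adjusted p = 0.591) nor without set 1 replicate 2 or 3 (3.31 and 3.33). Without set 1 replicate 1 it was 5.76. The GABA carrier Slc6a11 was also higher in set 2, at 1.27, 1.88 and 1.27 CPM against 0.261, 0.0950 and 0.0336 (3.41 ± 0.71, adjusted p = 0.00666), and Slc7a6os was lower (-0.56 ± 0.14, adjusted p = 0.0154), a call lost without set 1 replicate 1 (-0.46) or set 2 replicate 5 (-0.49).

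Several carriers stood far higher in WT stomach than in WT cecum. Slc1a3 held 42.2, 51.6 and 47.5 CPM against at most 0.832 in WT cecum (6.15 ± 0.80, adjusted p = 4.63e-06). Slc38a3 and Slc38a5, carriers of glutamine, stood at 10.4, 18.1 and 12.4 and at 8.34, 8.36 and 6.92 CPM, against at most 0.344 and 0.126 in WT cecum (6.02 ± 0.82, adjusted p = 7.88e-06, and 7.33 ± 0.90, adjusted p = 2.55e-06). Slc7a8 reached 130.03, 140.4 and 82.7 CPM (4.75 ± 0.41, adjusted p = 3.14e-08) and Slc6a20a 40.6, 27.2 and 29.2 (3.88 ± 0.66, adjusted p = 9.87e-05). Every stomach library exceeded every WT cecum library for these 5 genes. Stomach was not tested against ileum, and the library labelled Cdx2-/-;Apc+/- ileum replicate 2 held 42.6 CPM of Slc6a20a, more than any stomach library. Slc6a14 was low, at 1.79, 0.681 and 1.35 CPM (-8.70 ± 1.20, adjusted p = 9.32e-06), and Slc3a1 held 2.07, 1.14 and 0.746 CPM (-6.10 ± 1.01, adjusted p = 7.36e-05).

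Against WT cecum, Apc+/- ileum was higher in 7 of 11 apical carriers and lower in 1, with 28.1% and 27.2% of all genes. Slc7a9 held 71.9, 64.1 and 86.7 CPM (6.93 ± 1.13, adjusted p = 4.30e-05), Slc6a19 6.74 ± 1.77, adjusted p = 0.00339 in log2 change, Slc15a1 56.5, 44.2 and 135 CPM (3.72 ± 1.03, adjusted p = 0.00479) and Slc6a20a 14.1, 23.1 and 16.5 CPM (3.03 ± 0.64, adjusted p = 0.000573). Slc38a4 differed most (10.76 ± 1.45, adjusted p = 5.43e-06). The glycine carrier Slc6a5 held 1.45, 4.47 and 1.96 CPM, against at most 0.0891 in WT cecum (5.19 ± 0.85, adjusted p = 4.45e-05). Slc6a14, at 15.9, 87.1 and 10.6 CPM, was lower (-3.80 ± 0.95, adjusted p = 0.00229), with replicate 2 apart from the other ilea. Slc3a1 was not called (-0.64 ± 0.80, adjusted p = 0.514). The serotonin carrier Slc6a4, at 18.5, 12.5 and 31.996 CPM, was called higher (2.56 ± 0.87, adjusted p = 0.0183) and lost the call without Apc+/- ileum replicate 3 (2.12) or WT cecum replicate 1 (2.49) or 3 (2.49).

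In the ileum the Cdx2-/-;Apc+/- libraries did not move together. Slc15a1 stood at 5.22, 240.5 and 6.09 CPM against 56.5, 44.2 and 135 in Apc+/- ileum, Slc6a19 at 6.40, 691 and 7.34 against 72.4, 103 and 218, and Slc7a9 at 10.8, 157 and 13.8 against 71.9, 64.1 and 86.7. For each, replicates 1 and 3 lay below all controls and the library labelled replicate 2 above them. Slc3a1 (14.5, 187 and 8.50 CPM) and Slc6a20a (4.98, 42.6 and 5.35 CPM) showed the same pattern. With all 3 libraries none of these was called, for example Slc15a1 at 0.09 ± 0.91, adjusted p = 0.998.

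Without the library labelled Cdx2-/-;Apc+/- ileum replicate 2, 1 member was higher and 4 were lower, where 1.75% of 20926 genes were higher and 1.03% lower. Slc15a1 (-3.80 ± 0.63, adjusted p = 0.00289), Slc7a15 (-2.90 ± 0.67, adjusted p = 0.0247), Slc6a20a (-1.79 ± 0.42, adjusted p = 0.0271) and Slc7a7 (-1.20 ± 0.19, adjusted p = 0.00209) then fell. Slc6a19 (-4.25 ± 1.36, adjusted p = 0.109), Slc7a9 (-2.59 ± 0.79, adjusted p = 0.0888) and Slc3a1 (-2.33 ± 0.64, adjusted p = 0.0577) were not called. The 2 libraries left are assumed to vary like the other groups. Among the mutant ilea, the library left out held the highest value of Slc15a1, Slc7a15, Slc6a20a and Slc7a7. Leaving it out thus lowers the mutant level of each, and these calls are no independent test of a fall. Slc1a3 was called with all libraries (4.86 ± 0.76, adjusted p = 0.00623) and rests on values of 2.14, 2.59 and 34.96 CPM against 0.459, 0.371 and 0.525. It was lost without Apc+/- ileum replicate 1 (4.87, adjusted p = 0.0587) and was 2.38, adjusted p = 0.000221 without mutant replicate 3. Gastric gland markers summed to 4270, 215 and 6861 CPM in the 3 mutant ilea and to 15.9 to 42.1 in the controls, 3 of 8 called higher and none lower, and their part in the Slc1a3 difference was not tested.

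**Figure D5:**
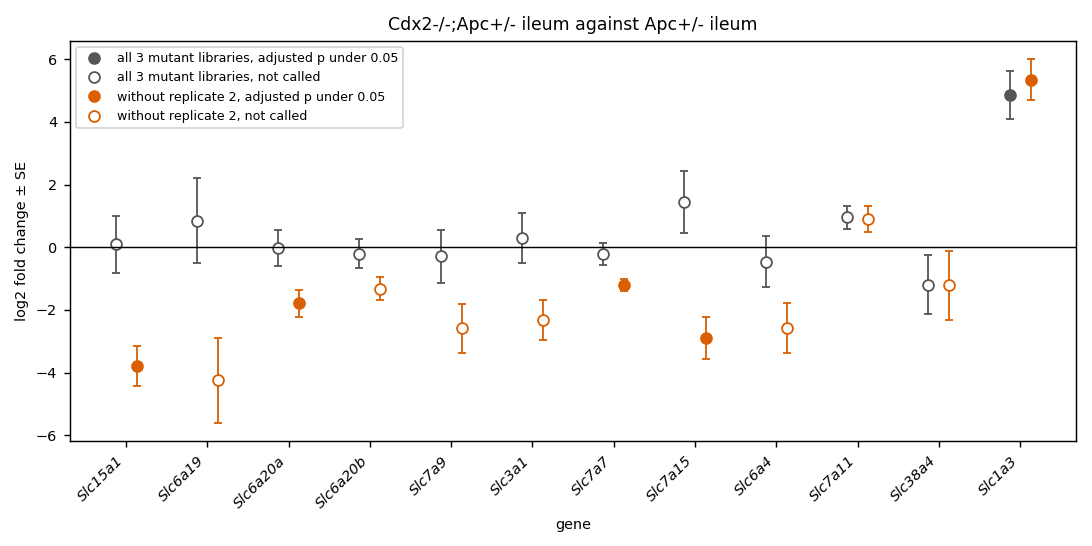
log2 fold change ± SE of 12 members in Cdx2-/-;Apc+/- against Apc+/- ileum, with all 3 mutant libraries (grey) and without replicate 2 (orange), filled where the adjusted p was under 0.05. Slc15a1 goes from 0.09 to -3.80, while Slc7a11 and Slc38a4 stay near 0.9 and -1.2.

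The change with Cdx2 in the ileum differed from that in the cecum for 20 members, 7 with a higher and 13 with a lower value in the ileum, where 17.8% and 17.2% of all genes were. Without the library labelled Cdx2-/-;Apc+/- ileum replicate 2, 7 were higher and 20 lower. The share of all genes for that refit is not reported here. Within the ileum, the share of all genes called rose without that library, from 0.395% to 1.75% higher and from 0.0488% to 1.03% lower. For the difference between ileum and cecum, library sizes alone gave 5 higher and 20 lower members, with the median of all genes at -0.44. The ileum mutants and controls both carry ApcD14, while the ceca compared do not. Slc7a11 differed most among those lower (-4.93 ± 0.53, adjusted p = 2.57e-06), and in the ileum it stood at 32.8, 28.9 and 19.99 CPM against 14.9, 11.95 and 15.3, every mutant above every control and not called (0.95 ± 0.37, adjusted p = 0.347). Slc7a5 (-2.50 ± 0.49), Slc38a1 (-1.56 ± 0.19), Slc7a6 (-1.32 ± 0.23) and Slc1a1 (-2.77 ± 0.74) were lower as well, with adjusted p at most 0.00683. Without the library labelled mutant ileum replicate 2, Slc15a1 turned from 0.07 ± 1.22 to -3.82 ± 0.74, adjusted p = 0.000828, Slc6a19 became called (-6.49 ± 1.71, adjusted p = 0.00776), Slc7a9 moved from -4.11 ± 1.25 to -6.41 and Slc3a1 was no longer called (0.84 ± 0.73, adjusted p = 0.417, from 3.45 ± 1.07 with it). Slc3a1 also lost its call without Apc+/- ileum replicate 1 (3.24, adjusted p = 0.0508). The library labelled mutant ileum replicate 2 held the highest mutant ileum value of Slc15a1, Slc6a19, Slc7a9 and Slc3a1. Leaving it out thus lowers each of them, and calls gained that way are no independent test.

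Genes of the amino acid response that Atf4 drives changed beside the exchangers. Of 22 tested, 11 rose and 3 fell in Cdx2-/- cecum, 8 and 3 in Cdx2+/- and 13 and 2 in Cdx2-/-;Apc+/- cecum, with median log2 changes of 0.57, 0.34 and 0.77, beside the shares of all genes given above. Psat1, of serine synthesis, rose from a mean of 4.94 to 31.4 CPM in Cdx2-/- cecum (2.64 ± 0.32, adjusted p = 1.53e-06) and Asns, asparagine synthetase, rose from 11.8 to 62.5 in Cdx2+/- cecum (2.40 ± 0.29, adjusted p = 5.74e-06). In Cdx2-/- cecum Cth, which makes cysteine from cystathionine, fell from 229 to 14.5 CPM (-4.00 ± 0.31, adjusted p = 6.15e-09). Sesn2, a leucine sensor, fell there from 85.8 to 14.8 (-2.55 ± 0.18, adjusted p = 2.69e-09). Atf4 itself was not called in Cdx2-/- cecum (0.29 ± 0.21, adjusted p = 0.256) and was in Cdx2-/-;Apc+/- cecum (0.61 ± 0.24, adjusted p = 0.0401). In the ileum edgeR called 0 of the 22 between mutant and control, with 4 at an unadjusted p under 0.05, and DESeq2 called 1.

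Partners of the apical carriers and brush border peptidases rose more often in Cdx2+/- than in Cdx2-/- cecum. Of 13 tested, 7 rose and none fell in Cdx2+/- cecum (median 2.27), where 17.1% of all genes rose and 17.3% fell. In Cdx2-/- cecum 3 rose and 4 fell (median -0.18), close to the shares of all genes, 26.9% and 26.2%. Aminopeptidase N (Anpep) rose from 19.2 to 1409.5 CPM in Cdx2+/- cecum (6.20 ± 1.10, adjusted p = 0.000273). The dipeptidase Dpep1 (-3.98 ± 0.62, adjusted p = 2.74e-05) and the metallopeptidase meprin alpha, Mep1a (-5.37 ± 1.11, adjusted p = 0.000477), fell in Cdx2-/- cecum, Mep1a from 1006 to 24.3 CPM. Cdx2-/- was lower than Cdx2+/- cecum in 10 of the 13 and higher in none, with 20.6% and 19.7% of all genes.

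Of 13 amino acid carriers outside the 7 families, 4 rose and 6 fell in Cdx2-/- cecum (median -0.19), and 4 rose and 4 fell in Cdx2+/- cecum. The shares of all genes, higher and lower, were 26.9% and 26.2% in Cdx2-/- and 17.1% and 17.3% in Cdx2+/- cecum. The mitochondrial aspartate and glutamate carrier Slc25a13 fell from 88.6 to 22.98 CPM in Cdx2-/- cecum (-1.95 ± 0.11, adjusted p = 1.72e-10). The mitochondrial carrier of branched-chain amino acids Slc25a44 fell from 116 to 42.1 CPM (-1.46 ± 0.18, adjusted p = 1.89e-06), and the lysosomal sialic acid and acidic amino acid carrier Slc17a5 fell from 43.5 to 21.3 (-1.03 ± 0.12, adjusted p = 1.30e-06).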

How the data were processed

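Poly(A) RNA of 24 gut samples was sequenced from libraries that do not mark strand, per the labels' protocols. The deposited values are whole-number counts of reads per gene. The authors ran CASAVA, TopHat2 2.0.11 and HTSeq 0.5.3p3 with GRCm38, per the submitters' processing notes, and counting options and the release of the annotation are not given. The 5 closing rows of each file, which name no gene, were left out. They held 6.62 to 10.4% (no feature), 2.00 to 3.44% (ambiguous) and 17.3 to 30.0% (not unique) as a percent of the sum over all rows of a file, those closing rows included. Symbols were matched by gene ID for 37607 of 39179 genes, which hold 99.78% of gene reads.

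All 8 groups were fitted in 1 model with edgeR 4.0.16 (R 4.3.3, TMM factors, quasi-likelihood test, Benjamini-Hochberg adjustment over 20502 genes), and Cdx2-/- cecum was taken as the mean of both sets. The scripts were tested on simulated data. In each comparison the 6 members with the largest called change each way and a fixed list of uptake carriers, exchangers and their partners are named, and from each pathway list up to 3 genes with the smallest adjusted p. Some genes of the pathway lists that the rule takes in are not reported here. Values of Slc7a1, Slc7a4, Slc6a9 and Slc15a3 against WT cecum, of Slc38a4 and Slc7a15 in the ileum, and of Atf4 fall outside that rule and were chosen after they were seen. The members and lists were chosen with earlier results of these data known. Exon lengths and overlaps come from GENCODE vM21 (GRCm38).

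Alternatives were DESeq2 1.42.0, upper quartile factors, library sizes alone, no low-count filter, only the groups compared, a replicate block, either Cdx2-/- set alone, set 1 replicates 2 and 3 summed, and leaving out each library. Replicate numbers were taken not to pair libraries: in 0 of 21 pairs of groups did every same-numbered pair deviate together with a correlation above 0.1. That rule cannot exclude pairing in part. WT cecum and WT stomach correlated at 0.174, 0.0274 and 0.330, and WT cecum and Apc+/- ileum at 0.0181, -0.175 and -0.298. Counts with a replicate block are given below. Set 1 replicates 2 and 3 were closer than any other pair (chi-square per degree of freedom 7.03, against 53.0 to 506 elsewhere), more than sampling noise, and were kept as 2 libraries. With them summed into 1, 25 members were called in Cdx2-/- against WT cecum, 19 higher and 6 lower, where the main fit called 27. Over all comparisons with set 1, 4 results of named members lost the call.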

Additional observations from a re-analysis of the deposited data

Results flagged for a closer look

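Dixon's test was run on the CPM of each of the 52 members over the 6 Cdx2-/- cecum libraries, both sets together. By that test 1 library stood apart for 7 of the 52 members. Chance gives this in about 1 of 20 tests if the 6 values are independent and normal. CPM pooled over 2 sets, with set 1 replicates 2 and 3 close together, need not meet that, so the 7 are a description. Set 2 replicate 6 held 51.5 CPM of the proline carrier Slc6a7 (others 0.317 to 3.37), 84.4 CPM of the glycine carrier Slc6a9 (others 26.4 to 39.0) and 1.16 CPM of Slc6a5 (others at most 0.250). Set 2 replicate 4 held 27.7 CPM of Slc6a19 (others 0.164 to 5.08) and 8.52 CPM of the serotonin carrier Slc6a4 (others 0.739 to 1.16). Set 2 replicate 5 held 53.9 CPM of Slc36a1 (others 36.8 to 42.6), and set 1 replicate 3 held 0.773 CPM of Slc38a4 (others 0.239 to 0.427).

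The change with Cdx2 differed between ileum and cecum in the interaction term of edgeR's quasi-likelihood test for 15 named members. The log2 difference, ileum minus cecum, was lower for Slc7a11 (-4.93), Slc38a5 (-4.23), Slc7a9 (-4.11), Slc36a2 (-3.69), Slc1a1 (-2.77), Slc7a5 (-2.50), Slc38a1 (-1.56) and Slc7a6 (-1.32). It was higher for Slc3a1 (3.45), Slc1a3 (3.25), Slc15a2 (2.98), Slc38a6 (1.80), Slc15a4 (1.58), Slc38a2 (0.71) and Slc6a6 (0.71). The calls for Slc3a1 and Slc6a6 were lost without the library labelled Cdx2-/-;Apc+/- ileum replicate 2 (0.84 and 0.40), that for Slc1a3 without replicate 3 of the same group (0.77), and that for Slc15a2 without WT cecum replicate 2 (2.21).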

How the results depend on the processing

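Over 241 results of named members and 3612 alternatives, 94.3% kept direction and call, 126 lost the call, 74 gained it and 7 turned in direction. With library sizes alone Slc36a1 turned to 0.32 (Cdx2-/- against WT cecum) and 0.50 (Apc+/- ileum against WT cecum), Slc38a2 to 0.063 (Cdx2-/-;Apc+/- against WT cecum), and Slc1a5 to 0.006 and Slc6a6 to 0.46 (Apc+/- ileum against WT cecum). That scale moves the median of all genes. Leaving out single libraries moved Slc15a1 between -3.80 and 0.74 in the ileum and between -3.82 and 0.71 for ileum against cecum, the low ends without the library labelled mutant ileum replicate 2.

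The 3 members called between Cdx2-/-;Apc+/- and Cdx2-/- cecum became 9 with DESeq2, 9 with a replicate block, 15 against set 1 alone, 0 with edgeR against set 2 alone (7 at an unadjusted p under 0.05), and 2 to 5 without single libraries. The 5 called between the sets became 3 when only the groups compared were fitted and 3 to 6 without single libraries. The 1 called in the ileum became 2 with DESeq2, 0 when only the groups compared were fitted, 0 with a replicate block (6 at an unadjusted p under 0.05), and 0 to 5 without single libraries. The causes were not tested. With the replicate block, where set 1 alone stands for Cdx2-/- cecum, the other counts were 27 (Cdx2-/- against WT cecum), 31 (Cdx2+/- against WT), 26 (between these mutants), 29 (Cdx2-/-;Apc+/- against WT), 34 (stomach), 32 (ileum against WT cecum) and 15 (ileum against cecum), all within 1.5 times. No paired analysis was possible for set 2 against set 1 because they share no replicate number.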
